A study of Mus musculus with 5 samples.

Results

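The genes described are the heat shock proteins and chaperonins of the mouse, chosen by symbol. They are the members of the families named Hspa, Hspb, Hspd, Hspe, Hsph and Hsp90, the J-domain families Dnaja, Dnajb and Dnajc, and the numbered subunits Cct of the cytosolic chaperonin, without pseudogenes. The rule used no measured value and took 81 of the 27179 genes in the table: 3 of HSP90, 14 of HSP70 and HSP110, 2 of HSP60 and HSP10, 8 small HSP, 4 DNAJA, 13 DNAJB, 28 DNAJC and 9 CCT. Transcripts were counted in 3 ILC3 libraries, from the innate lymphoid cells of group 3, gated as CD45+ CD3- CD127+ with a green fluorescent lineage reporter, and in 2 CD4 T libraries, from T cells gated as CD45+ CD3+ CD4+. All cells came from wild type C57BL/6 mice, 3 in all per the design text of the series, and the labels name no treatment, age or tissue. The labels do not tie a replicate number to a mouse, so p-values reflect only how these libraries vary, which may be technical.

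Chaperones bind unfolded or partly folded proteins and keep them from aggregating. HSP70 proteins do so in cycles of ATP hydrolysis, J-domain proteins bring them clients and start the hydrolysis, and HSP110 proteins and BAG proteins release the nucleotide. HSP90 finishes the folding of kinases and receptors, while HSP60 with its lid HSP10 encloses proteins inside mitochondria and the CCT ring folds actin and tubulin in the cytosol. Heat shock factor 1 induces many of these genes through inverted repeats of GAA, and the unfolded protein response induces those of the endoplasmic reticulum (ER). Lymphocytes rely on the ER set to assemble receptors and secreted proteins.

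Depth ranged from 20905412 to 25956023 counts in the ILC3 libraries and was 20165672 and 15123715 counts in the CD4 T libraries. The chaperone genes held 1.08%, 0.657% and 0.818% of all counts in the ILC3 libraries, and 0.928% and 0.776% in the CD4 T libraries. Receptor segment genes of immunoglobulin and T cell receptor type held 6.55% to 29.8% in ILC3 and 10.2% to 17.0% in CD4 T. Of the genes on which the cells were sorted, Il7r, which encodes CD127, was 1025 to 1486 CPM (counts per 1000000, scaled by TMM) in ILC3 and 211 and 227 CPM in CD4 T, and Cd4 was 2.81 to 6.27 CPM in ILC3 and 142 and 89.9 CPM in CD4 T. Cd3e did not separate the groups, at 20.5 to 69.8 CPM in ILC3 and 54.8 and 200.3 CPM in CD4 T. The libraries labelled CD4 T also held more transcripts known from plasmacytoid dendritic cells and macrophages. Of 9 markers of plasmacytoid dendritic cells, 8 were lower in ILC3, with a summed level of 169 to 254 CPM in ILC3 and of 3476 and 2483 CPM in CD4 T. All 9 macrophage markers were lower in ILC3, with a sum of 170.5 to 218 CPM in ILC3 and of 2297 and 3137 CPM in CD4 T. Plasma cell markers had 1 of 7 lower, Prdm1, and summed to 18056 to 100705 CPM in ILC3 and to 34796 and 21422 CPM in CD4 T. Nearly all of that sum was Jchain (17847 to 100268 CPM in ILC3 and 34215 and 20793 CPM in CD4 T), while Mzb1, Prdm1 and Derl3 were lower in every ILC3 library than in either CD4 T library. B cell markers summed to 171 to 302 CPM in ILC3 and to 94.0 and 150 CPM in CD4 T. Of the 6 tested, 1 was called, Blk, which was higher in ILC3, and Pax5 had no count in any library. T cell markers summed to 251 to 688 CPM in ILC3 and to 1028 and 2511 CPM in CD4 T. Of these 6, 4 were lower in ILC3, and Cd6 had no count there. Of 6 conventional dendritic cell markers, Zbtb46 and Batf3 were higher in ILC3, and Flt3, Clec9a and Clec10a were lower. These sums stand beside every difference given here, and their part in it was not tested. In bulk RNA, fewer cells of a type and less RNA per cell cannot be told apart.

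Most chaperone genes did not pass the test between ILC3 and CD4 T, and those that did went both ways. Of the 81 genes, 66 passed the filter on low counts and were tested with edgeR's quasi-likelihood test, with Benjamini-Hochberg adjustment across all 12747 tested genes. At an adjusted p under 0.05, 5 were higher in ILC3 (7.58% of those tested), where 6.46% of all tested genes were. They were the HSP70 gene Hspa8 and the J-domain genes Dnaja1, Dnaja4, Dnajc3 and Dnajc6. A further 3 were lower (4.55%), where 7.21% of all tested genes were. They were the heat-inducible pair Hspa1a and Hspa1b and the J-domain gene Dnajc13. In this fit both shares lie near those of all genes, of which 824 were higher and 919 lower. With library size alone in place of TMM that split was 384 and 1491, and 4 chaperone genes were higher and 3 lower. The other 58 tested genes did not pass. Counts moved with the tool and the libraries: DESeq2 called 20 higher and 4 lower, and limma-voom 16 and 3. Of all 12747 tested genes DESeq2 called 1914 higher and 1858 lower, and limma-voom 1317 (10.3%) and 1402 (11%). In both tools the chaperone share lay above that of all genes for higher calls and below it for lower calls. This difference was not tested. Without any 1 of the ILC3 replicates edgeR called 2 higher and 0 lower, where 2.2% to 2.6% and 2.8% to 3.8% of all tested genes were.

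The values leaned towards ILC3 more than the calls of the reported edgeR fit. Every ILC3 library lay above both CD4 T libraries for 29 of the 66 tested genes (43.9%), where 25.5% of all tested genes did so, and every one lay below for 5 (7.58%), where 29.6% did so. The median log2 difference of ILC3 over CD4 T was 0.70 for the tested chaperone genes and -0.10 for all genes tested. With library size alone those medians were 0.16 and -0.59. The gap between the medians was 0.80 with TMM and 0.75 with library size alone. The filter can keep a gene through its high group alone, and these shares were not tested. The 29 genes with every ILC3 library above comprised 22 of 39 tested J-domain genes, 4 of 8 CCT genes and 3 of 11 HSP70 and HSP110 genes.

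**Figure D1:**
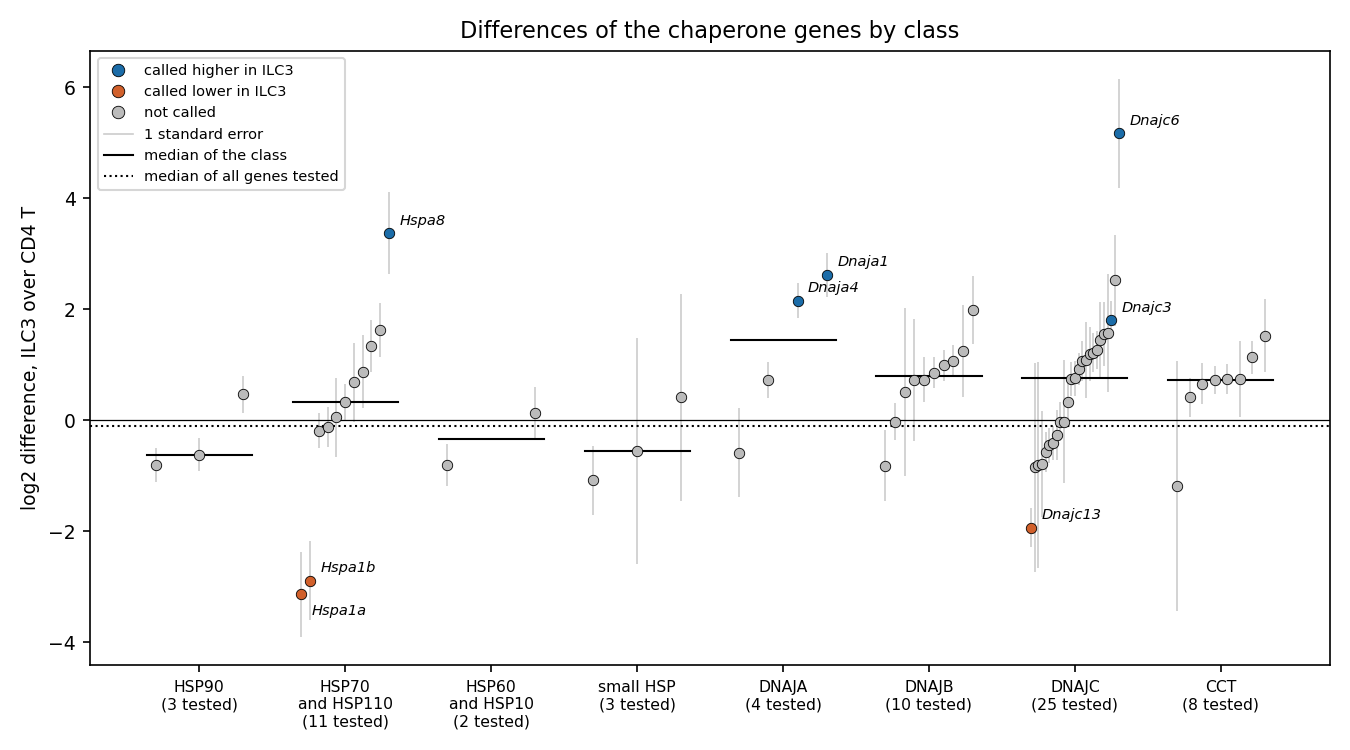
Fitted log2 difference of ILC3 over CD4 T (y axis) for each of the 66 tested chaperone genes, grouped by class and ordered by value, with points coloured by the edgeR call and lines of 1 standard error. The class medians run from -0.62 for HSP90 to 1.44 for DNAJA, the dotted line marks the median of all genes tested at -0.10, and the 8 named genes passed the test.

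The cytosolic HSP70 genes differed in opposite directions. Hspa8 (chromosome 9, 40801276 to 40805202 in GRCm38.p6) encodes HSC70, the constitutive HSP70 of the cytosol, and stood at 150.1, 134 and 129 CPM in ILC3 replicates 1 to 3, against 4.0 and 22.7 CPM in CD4 T replicates 1 and 2. The ILC3 libraries lay close together and all above both CD4 T libraries, which were far apart from each other. Its log2 difference was 3.37 (SE 0.743, adjusted p = 0.0335 in edgeR), a fold of 10.3. Leaving out CD4 T replicate 2, the higher of that pair, gave a log2 difference of 5.12 and leaving out replicate 1 gave 2.61 (adjusted p = 0.00354 and 0.0142 in edgeR). With ILC3 replicate 1, 2 or 3 left out in turn it was not called (adjusted p = 0.0849, 0.0804 and 0.0685 in edgeR). In GENCODE M21 some exons annotated for Hspa8 overlap small nucleolar RNA genes on the same strand. Whether reads of those genes were counted for Hspa8 is unknown, since the annotation used for counting is not given in the sources used here.

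Hspa1a and Hspa1b encode the same inducible HSP70, the classical product of heat shock, from neighbouring genes on chromosome 17 (34969359 to 34972156 and 34956429 to 34959238, both on the minus strand). Hspa1a was 1.62, 6.72 and 6.30 CPM in ILC3, against 66.7 and 19.1 CPM in CD4 T. Hspa1b was 3.46, 12.3 and 13.7 CPM in ILC3, against 111 and 34.7 CPM in CD4 T. In both genes every ILC3 library lay below both CD4 T libraries, with ILC3 replicate 1 lowest and CD4 T replicate 1 highest. The log2 difference was -3.14 for Hspa1a (SE 0.774, adjusted p = 0.0450 in edgeR) and -2.90 for Hspa1b (SE 0.713, adjusted p = 0.0449 in edgeR), or 8.83 and 7.44 times lower in ILC3.

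Reads of the 2 copies may be split between their rows, and counts of Hspa1b over Hspa1a kept to 2.13, 1.84 and 2.18 in ILC3, against 1.67 and 1.81 in CD4 T. Summed over both rows the counts were 141, 298 and 343 in ILC3, against 4498 and 996 in CD4 T. That sum differed by a log2 value of -2.98 (SE 0.716, adjusted p = 0.0419 in edgeR). It rests on CD4 T replicate 1: without that library the log2 difference was -1.87 for the sum, -1.97 for Hspa1a and -1.82 for Hspa1b (edgeR adjusted p = 0.227, 0.265 and 0.248). Nor did the calls hold without ILC3 replicate 1 (edgeR adjusted p = 0.0848 for Hspa1a and 0.0823 for Hspa1b), 2 (0.0944 and 0.0996) or 3 (0.0865 and 0.0789).

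The upstream sequences of the 2 genes show how alike the copies are outside the transcript as well. The 250 bases before each annotated start are printed 5′ to 3′ from RefSeq windows of GRCm38.p6, with capitals for the inverted pair of GAA units, GAANNTTC, that starts 104 bases before both starts. Counted from 1 at the 5′ end of the printed sequence, 247 of 250 bases are identical (98.8%), and the differences, with the base of Hspa1a first, are C44T, T47C and T249G. The pair GAANNTTC, which reads the same on both strands, occurs in 7.86% of the 32851 RefSeq windows of this kind, each with 250 bases before and 50 after a start.
Hspa1a chr17:34972157-34972406 (minus strand): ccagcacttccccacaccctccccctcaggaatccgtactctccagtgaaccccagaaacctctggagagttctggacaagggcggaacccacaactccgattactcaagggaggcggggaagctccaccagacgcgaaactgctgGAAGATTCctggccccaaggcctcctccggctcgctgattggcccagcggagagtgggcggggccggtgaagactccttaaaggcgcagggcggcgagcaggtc
Hspa1b chr17:34959239-34959488 (minus strand): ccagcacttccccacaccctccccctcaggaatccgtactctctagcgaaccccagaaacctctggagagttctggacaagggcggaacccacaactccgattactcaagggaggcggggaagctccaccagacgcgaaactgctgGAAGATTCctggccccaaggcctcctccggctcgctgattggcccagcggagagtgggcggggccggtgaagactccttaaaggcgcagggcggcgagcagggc

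Next to them on chromosome 17, Hspa1l, an HSP70 gene known from the testis, had no count in the 3 ILC3 libraries, against 49 and 1 counts in CD4 T replicates 1 and 2. Taken over each group with TMM scaling, that is at least 23.1-fold lower in ILC3, with 3 counts over the group allowed for the 0, and nearly all of it came from the CD4 T library in which Hspa1a and Hspa1b were highest. Hspa1l was not tested, since it did not pass the filter on low counts. HSP70 genes of other compartments and the HSP110 genes did not pass the test. Hspa4, an HSP110 gene of the cytosol, was 140.2, 100.3 and 111 CPM in ILC3 and 163 and 105 CPM in CD4 T, with overlapping groups (log2 ratio -0.19, SE 0.317, adjusted p = 0.725 in edgeR). Hsph1, the heat-inducible HSP110, was 11.0, 23.0 and 46.6 CPM in ILC3 and 39.3 and 12.6 CPM in CD4 T, so each group spread as widely as the other (log2 ratio 0.05, SE 0.716, adjusted p = 0.973 in edgeR). Its relative Hspa4l had a log2 difference of 0.68 (edgeR adjusted p = 0.562). Hspa14, which works at the ribosome with the J-domain gene Dnajc2, was named after its values were seen. It was 185, 159 and 139 CPM in ILC3, all above 33.2 and 94.2 CPM in CD4 T, and did not pass (log2 ratio 1.33, SE 0.475, adjusted p = 0.103 in edgeR).

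**Figure D2:**
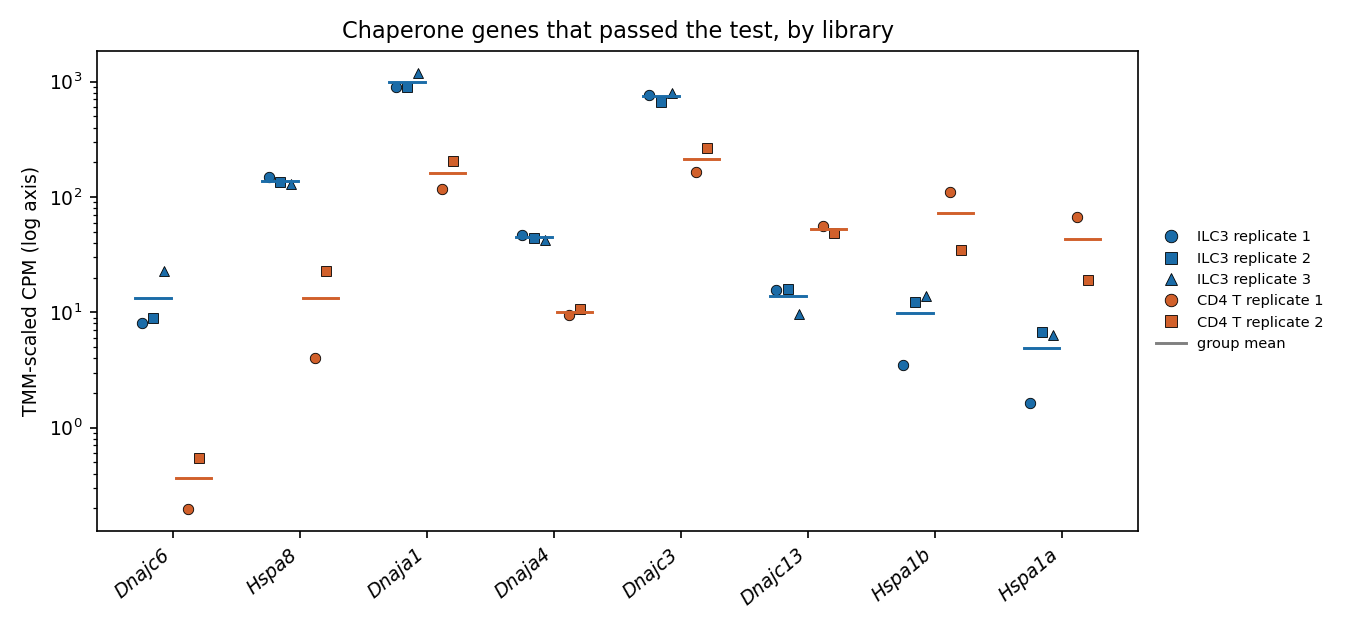
TMM-scaled CPM on a log axis of the 8 chaperone genes that passed the test, with a point for each of the 3 ILC3 and 2 CD4 T libraries, shaped by replicate, and bars at the group means. The groups do not overlap in any of the 8, and CD4 T replicate 1 stands apart from replicate 2 in Hspa8, where it is lower, and in Hspa1a and Hspa1b, where it is higher.

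J-domain genes gave 4 of the 5 higher calls and 1 of the 3 lower ones. Dnaja1 (chromosome 4, 40722468 to 40734965) encodes a farnesylated J-domain partner of HSC70 in the cytosol. It was 890.5, 891 and 1198 CPM in ILC3, against 117 and 205 CPM in CD4 T. Every ILC3 library was far above both CD4 T libraries, and the log2 difference was 2.62 (SE 0.395, adjusted p = 0.0116 in edgeR), a fold of 6.15. Without each library in turn the edgeR adjusted p of Dnaja1 ran from 0.00641 to 0.0434, below the threshold each time.

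Dnaja4, a relative of Dnaja1 (chromosome 9, 54698848 to 54716317), was 47.1, 44.3 and 42.7 CPM in ILC3, against 9.42 and 10.7 CPM in CD4 T. Both groups were tight and far apart, with a log2 difference of 2.15 (SE 0.320, adjusted p = 0.0113 in edgeR). It too kept its call without each library in turn (edgeR adjusted p from 0.0148 to 0.0498). Of the 81 genes 31 share exon bases with another annotated gene on either strand, among them 5 of the 8 that passed. For 28 of the 31 such a gene lies on the opposite strand. On the opposite strand, exons of Smu1 and Gm6297 overlap those of Dnaja1, Wdr61 those of Dnaja4, Gm20481 those of Hspa1a and Gm37563 those of Dnajc13, and Mir207 lies in Dnaja1 on the same strand. Reads of these pairs cannot be told apart without strand, and the strand setting of the counting is not given in the sources used here. The other DNAJA genes did not pass. Dnaja2, a close relative in the cytosol, was 267, 214 and 165 CPM in ILC3, all above 109.9 and 151 CPM in CD4 T (log2 ratio 0.72, SE 0.330, adjusted p = 0.177 in edgeR), and the mitochondrial Dnaja3 had overlapping groups (log2 ratio -0.59, adjusted p = 0.660 in edgeR).

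Dnajc6 (chromosome 4, 101496648 to 101642799) encodes auxilin, which recruits HSC70 to strip clathrin from vesicles and is best known from neurons. It was 8.11, 8.95 and 22.8 CPM in ILC3, against 0.198 and 0.541 CPM in CD4 T. In CD4 T the gene was near the detection floor of 0.119 and 0.162 CPM (3 counts), and ILC3 replicate 3 was the highest library. The log2 difference was 5.17 (SE 0.984, adjusted p = 0.0223 in edgeR), the largest positive one among the tested chaperone genes. The call did not hold without CD4 T replicate 1 (adjusted p = 0.0881 in edgeR), ILC3 replicate 1 (0.0501), 2 (0.0542) or 3 (0.0664), while leaving out CD4 T replicate 2 gave a log2 difference of 6.04. Its relative Gak, cyclin G associated kinase, which has the same J-domain role in most cells, was named for that relation after its values were seen. Gak was 5.98, 8.51 and 6.36 CPM in ILC3 and 7.40 and 5.84 CPM in CD4 T, with overlapping groups (log2 ratio 0.07, SE 0.607, adjusted p = 0.952 in edgeR).

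Dnajc13 (chromosome 9, 104151597 to 104263608) encodes RME-8, a J-domain protein of endosomes that acts with HSC70 in sorting cargo. Its level was 15.6, 15.8 and 9.75 CPM in ILC3, against 56.1 and 49.1 CPM in CD4 T. The highest ILC3 library was far below the lowest CD4 T library, and the log2 difference was -1.94 (SE 0.351, adjusted p = 0.0189 in edgeR). The call did not hold without CD4 T replicate 1 (edgeR adjusted p = 0.0698) or without ILC3 replicate 1 (0.0616), 2 (0.0631) or 3 (0.0556). Thus, of the 2 clathrin and endosome partners of HSC70 that passed, 1 was higher and 1 lower in ILC3.

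Several cytosolic and nuclear J-domain genes lay wholly above CD4 T without passing. Dnajc8, which is found with the spliceosome, was 461, 402 and 390.0 CPM in ILC3, against 140.0 and 259 CPM in CD4 T (log2 ratio 1.07, SE 0.356, adjusted p = 0.0879 in edgeR). Dnajb1, the classical heat-inducible HSP40, was 108, 123 and 139 CPM in ILC3, against 74.0 and 62.7 CPM in CD4 T (log2 ratio 0.85, SE 0.278, adjusted p = 0.0833 in edgeR). Dnajb4, a close relative of it, was 124, 91.2 and 88.4 CPM in ILC3, against 9.93 and 41.3 CPM in CD4 T (log2 ratio 1.98, SE 0.614, adjusted p = 0.0729 in edgeR). The pattern of these 3 was the same, in that no ILC3 library came as low as a CD4 T library. Dnajc12, a partner of the aromatic amino acid hydroxylases, and Dnajb6, which holds back the aggregation of polyglutamine proteins, were named after their values were seen. Dnajc12 was 134, 115 and 109 CPM in ILC3, against 4.67 and 37.0 CPM in CD4 T, and Dnajb6 was 83.9, 76.2 and 83.6 CPM in ILC3, against 33.0 and 45.0 CPM in CD4 T. Neither passed (edgeR adjusted p = 0.0818 and 0.0555).

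By class, the DNAJA genes had 2 of 4 higher and a median log2 difference of 1.44, the DNAJB genes 0 of 10 called with a median of 0.79, and the DNAJC genes 2 higher and 1 lower of 25 with a median of 0.75. At an unadjusted edgeR p under 0.05 there were 4 DNAJB genes, and DESeq2 called 4 of the 10 higher and limma-voom 3. Of the 10, 6 (60%) lay wholly above CD4 T, where 25.5% of all tested genes did. In sum the DNAJA genes took 12.0%, 13.0% and 14.1% of all chaperone counts in ILC3, against 3.29% and 5.83% in CD4 T, and Dnaja1 made up most of that.

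HSP90 genes took a smaller share of the chaperone counts in ILC3. The 3 genes together held 11.4%, 11.8% and 12.5% of those counts in ILC3, against 30.1% and 23.6% in CD4 T, with no overlap. Hsp90b1 encodes GRP94, the HSP90 of the ER, which is known for folding Toll-like receptors and integrins. It was 789, 679 and 807 CPM in ILC3, against 1601 and 1049.9 CPM in CD4 T (log2 ratio -0.81, SE 0.310, adjusted p = 0.125 in edgeR). Hsp90ab1, the constitutive HSP90 of the cytosol, was 290.3, 308 and 359.7 CPM in ILC3, against 574 and 409 CPM in CD4 T (log2 ratio -0.62, SE 0.293, adjusted p = 0.191 in edgeR). All ILC3 libraries of both genes lay below both CD4 T libraries, but neither gene passed the test.

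The inducible cytosolic isoform Hsp90aa1 did not follow. It was 63.2, 55.5 and 77.1 CPM in ILC3 and 57.6 and 37.1 CPM in CD4 T, with overlapping groups (log2 ratio 0.46, SE 0.327, adjusted p = 0.374 in edgeR, and log2 -0.04 with library size alone). Within each library, counts of Hsp90aa1 over Hsp90ab1 were 0.218, 0.180 and 0.214 in ILC3, against 0.100 and 0.0908 in CD4 T. This ratio does not depend on the scaling between libraries, and every ILC3 library was higher than both CD4 T libraries. For HSP90, 0 of 3 genes passed in edgeR, and 1 was under 0.05 before adjustment, as were 4256 of all 12747 tested genes. For these 3 limma-voom called 0 and DESeq2 called 1 lower, where DESeq2 called 14.6% of all tested genes lower.

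The cytosolic chaperonin showed positive values in nearly every subunit and no call. The ring is built from 8 kinds of subunit, of which Tcp1 encodes the first and was added here to complete the set, since its symbol lies outside the rule. All 7 ubiquitous Cct genes had positive log2 differences, from 0.41 for Cct3 to 1.52 for Cct6a, with 0 called in edgeR. With library size alone 6 of the 7 were positive, and likewise without CD4 T replicate 1. Cct5, the highest of them, was 368, 384 and 379 CPM in ILC3, against 205 and 248 CPM in CD4 T (log2 ratio 0.73, SE 0.272, adjusted p = 0.113 in edgeR). Cct8 was 283, 225 and 392 CPM in ILC3 and 232 and 148 CPM in CD4 T (log2 ratio 0.66, SE 0.368, adjusted p = 0.261 in edgeR). The ILC3 libraries of Cct5 were tight and stood above CD4 T, while those of Cct8 spread and overlapped it. Cct4, named after its values were seen, came nearest to the threshold, at 217, 269 and 264 CPM in ILC3, against 97.1 and 131 CPM in CD4 T (log2 ratio 1.13, SE 0.296, adjusted p = 0.0506 in edgeR). Tcp1 was 236, 216 and 240.1 CPM in ILC3, against 46.7 and 117 CPM in CD4 T (log2 ratio 1.50, SE 0.433, adjusted p = 0.0628 in edgeR). At an unadjusted edgeR p under 0.05 there were 3 Cct genes, and the count called among the 7 was 3 in DESeq2, 2 in limma-voom and 4 without CD4 T replicate 2. Cct6b, the testis form of the subunit made by Cct6a, had at most 2.05 CPM in any library, and Cct8l1 had no count.

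**Figure D3:**
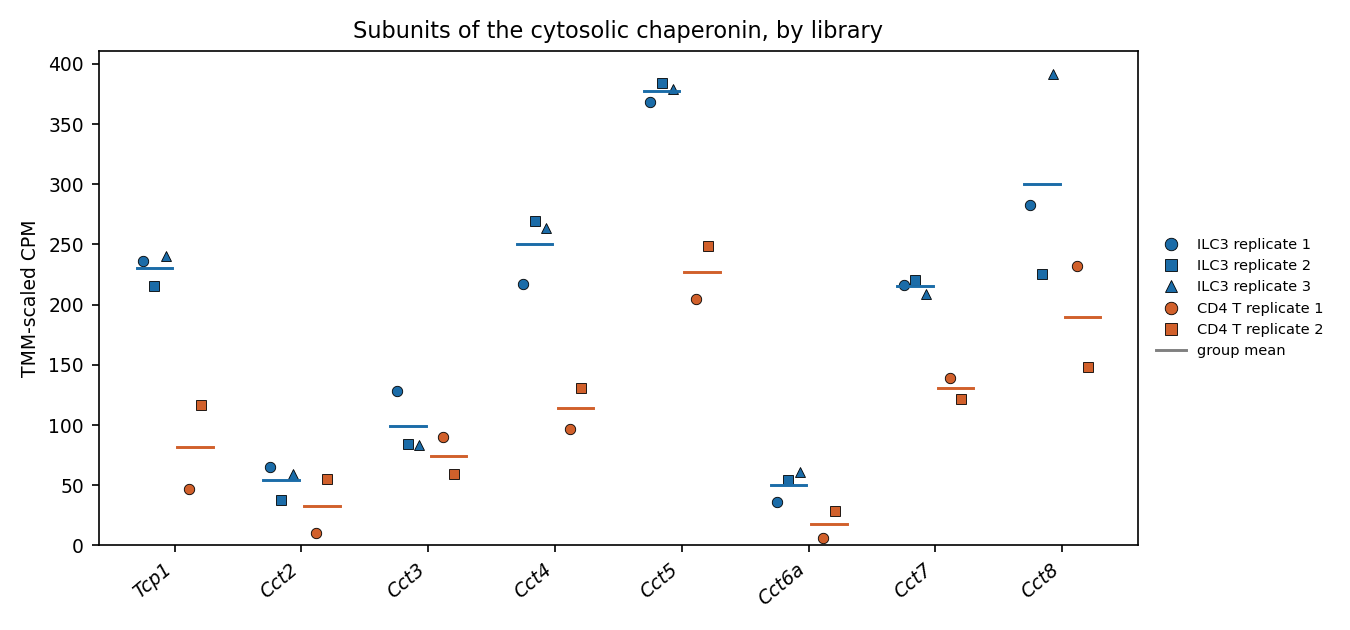
TMM-scaled CPM (linear axis from 0) of the 8 subunits of the cytosolic chaperonin, with a point for each library, shaped by replicate, and bars at the group means. The ILC3 mean is above the CD4 T mean in each subunit, the groups separate in Tcp1, Cct4, Cct5, Cct6a and Cct7, and none of the 8 passed the test.

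In mitochondria none of the 8 listed chaperone genes passed in edgeR. Hspd1 (HSP60) and Hspe1 (HSP10) make the folding chamber and its lid, and Hspa9 encodes mortalin, the HSP70 that pulls imported proteins into the matrix. Hspd1 was 15.1, 14.9 and 28.7 CPM in ILC3 and 19.6 and 16.1 CPM in CD4 T (log2 ratio 0.13, SE 0.456, adjusted p = 0.874 in edgeR). Hspe1 was 45.9, 53.8 and 77.0 CPM in ILC3 and 133 and 72.9 CPM in CD4 T (log2 ratio -0.80, SE 0.377, adjusted p = 0.188 in edgeR). The groups overlapped in both genes, though counts of Hspe1 over Hspd1 within a library were 3.03, 3.61 and 2.68 in ILC3, against 6.77 and 4.52 in CD4 T, without overlap. The annotation holds 5 named pseudogenes of Hspd1 and 6 of Hspe1, so reads of both are uncertain. Hspa9 was 96.7, 65.9 and 109 CPM in ILC3 and 122 and 75.1 CPM in CD4 T, again with overlap (log2 ratio -0.13, SE 0.355, adjusted p = 0.843 in edgeR).

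Hspd1 (55077833 to 55088243, minus strand) and Hspe1 (55088148 to 55091317, plus strand) lie head to head on chromosome 1, and their annotated first ends overlap. The 30 bases printed run 5′ to 3′ on the strand of Hspe1, lie before its start and inside the annotated Hspd1 gene, and hold, in capitals, 2 overlapping matches to 3 alternating GAA units (GAANNTTCNNGAA, on either strand), which begin 89 and 84 bases before the start of Hspe1. This motif is in 0.603% of all windows and in those of 4 chaperone genes among the 66 that had a window: Dnajb6, Hspd1, Hspe1 and Hsph1. None of the 4 passed the test. The other 15 chaperone genes had no window, among them Hspa8, Hsp90aa1, Hsp90ab1, Hspa9 and Cct4. The 66 genes with a window are thus not the same set as the 66 tested.
Hspe1 chr1:55088053-55088082 (plus strand): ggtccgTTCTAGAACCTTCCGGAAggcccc

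Of the mitochondrial genes listed, 0 of 8 passed the edgeR test in either direction, with 2 under 0.05 before adjustment and 2 called higher by DESeq2 and by limma-voom, and their median log2 difference was -0.27. Dnajc15, a J-domain protein of the inner membrane that restrains complex I, was 308, 351 and 415 CPM in ILC3, against 173 and 205 CPM in CD4 T (log2 ratio 0.92, SE 0.292, adjusted p = 0.0782 in edgeR). Dnajc30, a partner of the ATP synthase, was 22.7, 22.9 and 26.8 CPM in ILC3, against 3.92 and 12.6 CPM in CD4 T (log2 ratio 1.55, SE 0.582, adjusted p = 0.118 in edgeR). These were the 2 genes of the list with every ILC3 library above CD4 T. Dnajc19, of the import motor, and Dnajc11, of the inner membrane's folds, had log2 differences of -0.42 and -0.79 with overlapping groups (edgeR adjusted p = 0.389 and 0.613). Genes encoded by the mitochondrial genome took 1.29% to 1.60% of counts in ILC3, against 2.87% and 2.03% in CD4 T, and the part of this in the values was not tested.

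In the ER, 1 chaperone gene passed the test. Hspa5 encodes BiP, the HSP70 of the ER, and was 2378, 1652 and 1915 CPM in ILC3 and 1804 and 1347 CPM in CD4 T, with overlapping groups (log2 ratio 0.33, SE 0.322, adjusted p = 0.524 in edgeR, and log2 -0.13 with library size alone). Dnajc3 (chromosome 14, 118937932 to 118981702) encodes p58IPK, a J-domain partner of BiP and inhibitor of the ER stress kinase PERK. Its level was 771, 671 and 803 CPM in ILC3, against 165 and 264 CPM in CD4 T. The ILC3 libraries of Dnajc3 lay close together and far above both CD4 T libraries, and the log2 difference was 1.801 (SE 0.340, adjusted p = 0.0217 in edgeR), a fold of 3.49. With ILC3 replicate 1, 2 or 3 left out in turn it was not called (adjusted p = 0.0711, 0.0697 and 0.0703 in edgeR), nor was it with library size alone (log2 1.32, edgeR adjusted p = 0.0717).

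A feature of sequence, searched for in the windows of all chaperone genes, picked out 3 ER genes, Dnajc3, Hspa5 and Hsp90b1. Each has in its window the ER stress response element (CCAAT, 9 bases, CCACG, searched on both strands), which occurs in 39 of the 32851 windows (0.119%) and, among the 66 chaperone genes with a window, in Dnajc3, Hspa5 and Hsp90b1 and no other. A stretch of 30 bases around each match is printed 5′ to 3′ on the strand of its gene, with the match in capitals. Hsp90b1 has 2 matches, 212 and 107 bases before its start, and the second reads on the opposite strand. That of Dnajc3 begins 105 bases and that of Hspa5 65 bases before the start. A match is a description of these letters and does not show that a factor binds.
Dnajc3 chr14:118937822-118937851 (plus strand): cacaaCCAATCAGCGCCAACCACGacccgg
Hspa5 chr2:34772020-34772049 (plus strand): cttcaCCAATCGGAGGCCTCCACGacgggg
Hsp90b1 chr10:86705632-86705661 (minus strand): caagcCCAATCGCAAGGAGCCACGcttcgg
Hsp90b1 chr10:86705527-86705556 (minus strand): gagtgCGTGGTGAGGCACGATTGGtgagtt

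Other ER genes were in part higher in value and did not pass. Dnajb9, or ERdj4, which holds the ER stress sensor IRE1 inactive together with BiP, was 327, 365 and 323 CPM in ILC3, against 187 and 155 CPM in CD4 T (log2 ratio 0.99, SE 0.276, adjusted p = 0.0593 in edgeR). Dnajb11, or ERdj3, which binds unfolded chains with BiP, was 192, 119 and 117 CPM in ILC3 and 133 and 157 CPM in CD4 T (log2 ratio -0.03, SE 0.328, adjusted p = 0.966 in edgeR). The groups were apart in Dnajb9 and overlapped in Dnajb11. Hspa13, a small HSP70 of the ER, was 122, 123 and 141 CPM in ILC3, against 62.5 and 21.2 CPM in CD4 T (log2 ratio 1.62, SE 0.485, adjusted p = 0.0673 in edgeR). Dnajc1, or ERdj1, had a log2 difference of 0.75 (edgeR adjusted p = 0.150), and Dnajc10, the reductase ERdj5, one of 0.32 (edgeR adjusted p = 0.569). Of the 8 ER genes 1 was higher (12.5%) and 0 were lower in edgeR, where 6.46% and 7.21% of all tested genes were. Before adjustment 4 of the 8 were under 0.05, and the median log2 difference was 0.54. DESeq2 called 3 higher and 1 lower and limma-voom 3 higher. Of the 8, 4 (50%) lay wholly above and 1 (12.5%) wholly below CD4 T, where 25.5% and 29.6% of all tested genes did. The summed plasma cell markers, nearly all Jchain, were 18056 CPM in ILC3 replicate 1 and 100705 and 82528 CPM in ILC3 replicates 2 and 3, and their part in the ER values was not tested.

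**Figure D4:**
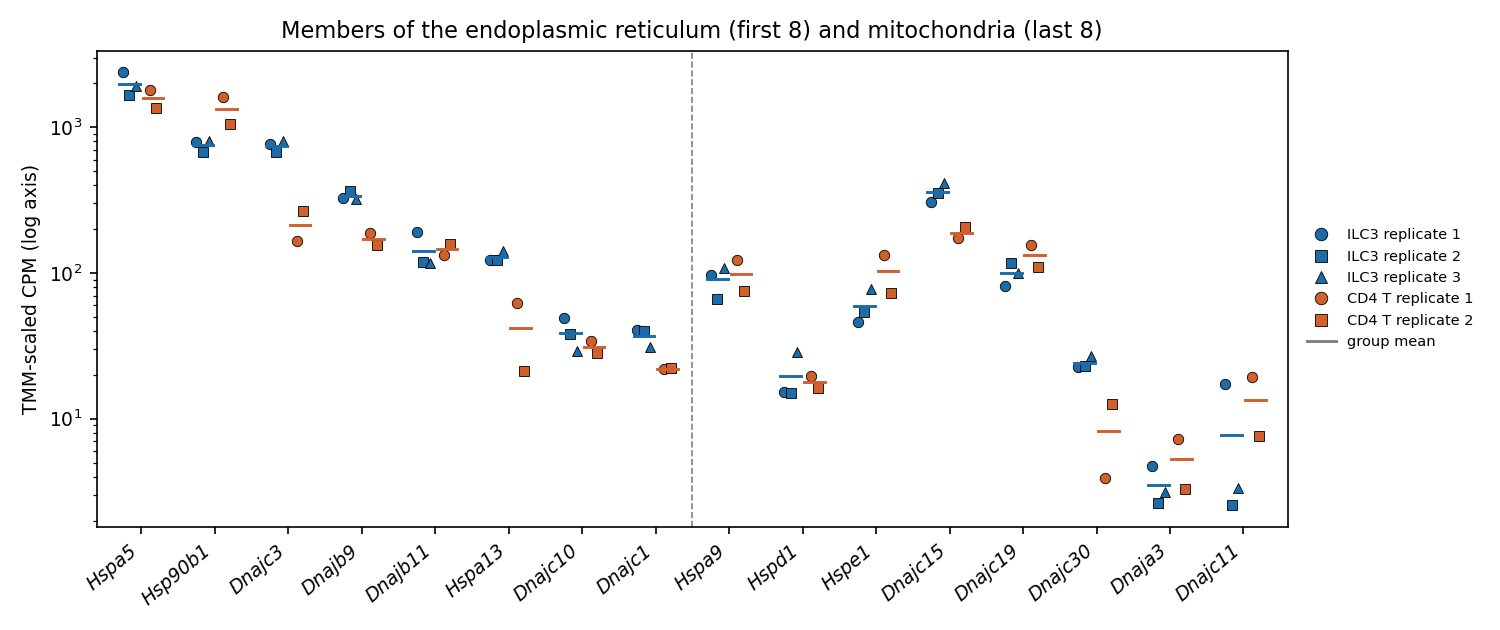
TMM-scaled CPM on a log axis of the 8 chaperone genes of the ER (left of the dashed line) and the 8 of mitochondria (right), with a point for each library, shaped by replicate, and bars at the group means. Dnajc3 is the gene of the 16 that passed the test, and Hsp90b1 is the one in which every ILC3 library lies below CD4 T.

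Small heat shock proteins were scarce in both groups. These are proteins with a crystallin domain that hold unfolding clients without ATP, apart from Hspb11, which serves transport in cilia. Hspb11 was 4.50, 15.4 and 12.0 CPM in ILC3 and 29.8 and 15.3 CPM in CD4 T, with overlap by a narrow margin (log2 ratio -1.08, SE 0.623, adjusted p = 0.273 in edgeR). Hspb6 was 1.55, 5.56 and 0 CPM in ILC3 and 2.41 and 1.14 CPM in CD4 T, too spread to compare (log2 ratio 0.41, SE 1.87, adjusted p = 0.904 in edgeR), and Hspb2 was at most 3.09 CPM in any library. Hspb1, which encodes HSP27 and is heat-inducible in many tissues, had 2, 2 and 0 counts in ILC3 and 1 and 16 counts in CD4 T and was not tested. In all, 9 chaperone genes had no count in any library, namely Cct8l1, Dnajb7, Dnajb8, Dnajc5b, Dnajc5g, Hspa12b, Hspb3, Hspb7 and Hspb8. A further 6 had some counts but did not pass the filter: Dnajb3, Dnajc22, Hspa12a, Hspa1l, Hspb1 and Hspb9.

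Heat-inducible genes from all classes, 12 of 13 tested, had 2 higher (Dnaja1 and Hspa8) and 2 lower (Hspa1a and Hspa1b), with a median log2 difference of 0.30. Each count was 16.7% of those tested, where 6.46% of all tested genes were higher and 7.21% lower. Hspa8 and Dnaja1 thus went against the pair Hspa1a and Hspa1b in the same libraries. Reads of that pair may be split between their rows, so the 2 lower calls may not be separate. In 4 of the 12 (33.3%) every ILC3 library lay above CD4 T and in 3 (25%) every one lay below. Of all tested genes 25.5% and 29.6% did so. Hsf1, the factor that induces them, was named for that role and was 26.6, 15.1 and 8.40 CPM in ILC3 and 12.7 and 10.5 CPM in CD4 T (log2 ratio 0.53, SE 0.584, adjusted p = 0.578 in edgeR). Genes that respond at once to handling and stimulation went both ways. Of 14 tested, 1 was higher (7.14%) and 3 were lower (21.4%) in ILC3, where 6.46% and 7.21% of all tested genes were. The median log2 difference of the 14 was -0.04. The lower ones were Zfp36, which destabilises messenger RNA (log2 -2.49), the transcription factor gene Egr1 (-2.14) and Ier3 (-3.95), and the higher one was Ier2 (1.29), with edgeR adjusted p = 0.0144, 0.0182, 0.0228 and 0.0292. Zfp36 was 671 CPM and Ier3 106 CPM in CD4 T replicate 1, against 276 and 39.8 CPM in CD4 T replicate 2. CD4 T replicate 1 was also the higher library of the pair for Hspa1a and Hspa1b. Of the 14, Dusp1, Btg2 and Nr4a1 went the other way. They were 14.4, 215 and 157 CPM in CD4 T replicate 1, against 99.6, 250 and 172 CPM in CD4 T replicate 2. The part of cell handling in these values was not tested. None of the 4 kept its call without each library in turn, with the highest edgeR adjusted p of each being 0.0629 for Zfp36, 0.0687 for Egr1, 0.117 for Ier3 and 0.0955 for Ier2.

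Partners of the chaperones outside the rule were listed as heat shock factors, co-chaperones and prefoldin. Of 45 tested among 47 listed, 2 were higher in ILC3 (4.44%) and 0 lower in edgeR, where 6.46% and 7.21% of all tested genes were. Before adjustment 15 were under 0.05, as were 4256 of all 12747 tested genes. Wholly above CD4 T lay 18 (40%) and wholly below it 9 (20%), where 25.5% and 29.6% of all tested genes did. The median log2 difference was 0.40. DESeq2 called 11 higher and 1 lower, and limma-voom 8 higher. Chordc1, an HSP90-binding protein, was 117, 94.1 and 138 CPM in ILC3, against 32.4 and 47.1 CPM in CD4 T (log2 ratio 1.55, SE 0.332, adjusted p = 0.0309 in edgeR). Bag5, a nucleotide release factor of HSP70, was 66.7, 45.9 and 55.6 CPM in ILC3, against 20.4 and 23.6 CPM in CD4 T (log2 ratio 1.35, SE 0.320, adjusted p = 0.0406 in edgeR). In both genes every ILC3 library lay above both CD4 T libraries. Neither call held without CD4 T replicate 1 or without any 1 of the ILC3 replicates, with edgeR adjusted p up to 0.0967 for Chordc1 and 0.121 for Bag5.

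The unfolded protein response genes outside the rule had 1 of 22 higher (4.55%) and 4 lower (18.2%), where 6.46% and 7.21% of all tested genes were. Wholly above CD4 T lay 8 (36.4%) and wholly below it 5 (22.7%), where 25.5% and 29.6% of all tested genes did. The median log2 difference was 0.25. DESeq2 and limma-voom each called 6 higher and 5 lower. Of all 12747 tested genes DESeq2 called 1914 higher and 1858 lower, and limma-voom 1317 and 1402. Ern1, which encodes the sensor IRE1, was 31.1, 25.2 and 40.6 CPM in ILC3, against 1.98 and 6.06 CPM in CD4 T (log2 ratio 3.01, SE 0.616, adjusted p = 0.0271 in edgeR). Eif2ak3, which encodes PERK, the kinase that the Dnajc3 product inhibits, was 7.28, 18.1 and 18.9 CPM in ILC3, against 114 and 48.3 CPM in CD4 T (log2 ratio -2.46, SE 0.546, adjusted p = 0.0341 in edgeR). Atf6, which encodes the other sensor of ER stress, was 66.5, 41.0 and 87.5 CPM in ILC3 and 94.5 and 46.9 CPM in CD4 T, with overlapping groups (log2 ratio -0.12, SE 0.444, adjusted p = 0.880 in edgeR), and was named for that role. Of the 3 sensors, Ern1 was thus wholly above CD4 T, Eif2ak3 wholly below it, and Atf6 overlapped it. The ubiquitin ligase gene Syvn1 (log2 -2.32), the oxidase gene Ero1b (-1.45) and the disulfide isomerase gene Txndc5 (-1.86), the last outside the rule for named genes and added after its values were seen, were also lower (edgeR adjusted p = 0.0408, 0.0381 and 0.0426). None of the 5 passed when CD4 T replicate 1 was left out, with edgeR adjusted p = 0.0550 for Ern1, 0.170 for Eif2ak3, 0.230 for Syvn1, 0.0968 for Ero1b and 0.189 for Txndc5. Nor did any pass without an ILC3 replicate, each left out in turn (edgeR adjusted p from 0.0648 to 0.110). Ero1b also missed without CD4 T replicate 2 (0.0538), and without that library the log2 difference of Ern1 was 4.04.

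Compared with each other per kilobase of annotated exon, the chaperone transcripts kept a similar top but in another order. In ILC3 the mean level was highest for Hspa5 at 528 CPM per kb, followed by Dnajc8 at 298, Hsp90b1 at 268, Cct5 at 204 and Dnaja1 at 172. In CD4 T it was highest for Hsp90b1 at 469 CPM per kb, followed by Hspa5 at 419.7, Hsp90ab1 at 195, Dnajc8 at 142 and Hspe1 at 133. Within each CD4 T library Hsp90b1 lay above Hspa5 per kilobase, though the ranges of the 2 genes over the libraries overlapped. Hspa5 alone took 23.6%, 18.7% and 19.2% of the chaperone counts in ILC3, against 24.4% and 21.2% in CD4 T, and Hsp90b1 took 7.84%, 7.70% and 8.09% in ILC3, against 21.6% and 16.5% in CD4 T. The share of Hspa5 overlapped between the groups and that of Hsp90b1 did not.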

How the data were processed

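Per the labels' protocols, RNA of 3 ILC3 and 2 CD4 T libraries was made into cDNA, using a SMARTer Ultra Low Input kit (V4). The authors deposited raw counts per NCBI gene ID. CASAVA 1.8.2, STAR 2.3.0 and build mm10 are named, per the submitters' processing notes, while no counting tool, annotation or strand setting is given in the sources used here. Symbols, coordinates and 300-base promoter windows came from a RefSeq table of GRCm38.p6, and exon lengths from GENCODE M21. Of 27179 IDs 25275 matched, and the other 1904 held 0.121% to 0.422% of counts.

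Counts were scaled by TMM and tested with edgeR 4.0.16 in R 4.3.3, over 12747 genes kept by filterByExpr, with 3 residual degrees of freedom, after the code was tested on simulated data. A gene was called at an adjusted p under 0.05. Log2 differences are ILC3 over CD4 T. DESeq2 1.42.0 and limma 3.58.1 (voom) were alternatives, beside other scalings, filters, a replicate block and each library left out. Named genes were all called genes, the 2 of highest mean CPM in each class, the heat-inducible, ER and mitochondrial genes, and up to 4 called genes of each context list, and exceptions are marked. Members and lists were chosen with earlier results of these data known, as were the tests, so they give no independent support to patterns already seen.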

Additional observations from a re-analysis of the deposited data

How the results depend on the processing

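Precision is limited by 3 and 2 libraries. Of the 8 chaperone genes called, 7 or 8 were called under each of the other scalings, filters, tests and dispersions, and fewer once a library was left out: 2 without any 1 ILC3 replicate and 4 without CD4 T replicate 1, but all 8 without CD4 T replicate 2. The count called higher, 5 in the fit reported, was 20 with the DESeq2 Wald test, 16 with limma-voom, 11 with no filter on low counts, 9 without receptor segment rows, and 2 to 18 over the leave-one-out fits. The count called lower, 3 as reported, was 0 to 4 over the leave-one-out fits, being 0 without CD4 T replicate 1 or any 1 ILC3 replicate. The median log2 difference was 0.16 with library size alone, and 0.61 to 0.76 under the other alternatives. The summed Hspa1a and Hspa1b difference stayed negative, from -3.59 to -1.87 over the leave-one-out fits.

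Titles number the libraries, and the deviations of same-numbered libraries from their group means had correlations of -0.02 and -0.03. The CD4 T libraries deviate from their own mean by equal and opposite amounts, so these values are not separate checks. They cannot decide whether same-numbered libraries came from the same mouse. A replicate block left 0 called higher, 0 lower and -3.31 for the summed pair (adjusted p = 0.135 in edgeR), with 1 residual degree of freedom.

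Over the 36 named chaperone genes, 459 values kept direction and side of the threshold, 27 passed it newly, 32 missed it and 24 changed sign; the cause was not tested. None of those that changed sign had been called. With library size alone the log2 difference was -0.14 for Dnajc10, -0.036 for Hsp90aa1, -0.13 for Hspa5, -0.19 for Hspb6, -0.39 for Hspd1 and -0.53 for Hsph1. In limma-voom it was -1.40 for Hspb6 and -0.16 for Hsph1. With the replicate block it was 0.062 for Dnajb11, -0.24 for Hspd1 and -0.49 for Hsph1. Over the leave-one-out fits it ran from -1.03 to 0.092 for Dnaja3, -0.31 to 0.11 for Dnajb11, -2.20 to 0.040 for Dnajc11, -0.46 to 0.16 for Hspa4, -0.42 to 0.27 for Hspa9, -1.17 to 1.06 for Hspb6, -0.25 to 0.30 for Hspd1 and -0.61 to 1.095 for Hsph1.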

Other observations

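A gene outside the rule by its symbol, Cryaa, belongs to the small heat shock proteins by family. It encodes alpha A-crystallin, known as a chaperone of the eye lens, and was chosen after its values were seen. Cryaa (chromosome 17, 31677931 to 31681730 in GRCm38.p6) was 482, 261 and 296 CPM in ILC3, against 0 and 1.19 CPM in CD4 T, from 13380, 4087 and 5069 counts in ILC3 and 0 and 22 counts in CD4 T. Every ILC3 library lay far above both CD4 T libraries. The log2 difference was 9.24 (SE 1.55, adjusted p = 0.0153 in edgeR), with adjusted p from 4.48e-06 to 0.0448 over the alternatives. Without CD4 T replicate 2 the fitted value has no measured size, since the remaining CD4 T library is at 0, and without CD4 T replicate 1 it was 8.18. The related alpha B-crystallin gene Cryab was 2.99, 8.44 and 0.350 CPM in ILC3 and 0.237 and 1.46 CPM in CD4 T, with overlapping groups, and did not pass (log2 ratio 2.21, SE 1.61, adjusted p = 0.386 in edgeR). Cryaa alone thus had a higher level than the 8 small heat shock protein genes of the rule in every ILC3 library.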
